A study of Homo sapiens with 9 samples.

Results

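GAS5 and 9 members of the SNHG (small nucleolar RNA host gene) family were followed in ALL-SIL cells after siRNA against TLX1: SNHG1, SNHG3, SNHG5, SNHG6, SNHG7, SNHG8, SNHG12, SNHG15 and SNHG16. They were picked by symbol, through the Ensembl identifiers in the count files, and make up 10 of 58096 gene identifiers listed there. That rule uses no measured value. ALL-SIL is a human T-cell acute lymphoblastic leukaemia line, and TLX1 is the homeobox transcription factor that such leukaemias can express aberrantly. Cells received by electroporation the TLX1 siRNA s46, the TLX1 siRNA s47 or a scrambled siRNA, and total RNA was sequenced at 24 h in 3 libraries of each, 9 in all. The labels give 400 nM for the scrambled siRNA and no dose for s46 or s47. All groups share the line, the electroporation and the time point, and no label says that libraries came from separate cultures, so each p-value measures the spread between these libraries, which may be technical. The groups show an acute, partial loss of the TLX1 transcript in a single line.

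Small nucleolar RNAs (snoRNAs) guide the chemical modification or the cleavage of ribosomal RNA: box C/D snoRNAs direct 2′-O-methylation and box H/ACA snoRNAs direct pseudouridylation. Most human snoRNAs are cut from introns of host genes. In the hosts described here the spliced RNA encodes no known conserved protein, and many of these RNAs start with a terminal oligopyrimidine (TOP) tract like that of ribosomal protein mRNAs. Ribosomes load onto such spliced host RNAs and nonsense-mediated decay degrades them, so that they accumulate when translation or decay is slowed. GAS5 takes its name, growth arrest-specific 5, from that behaviour, and its spliced RNA can act as a decoy for the glucocorticoid receptor.

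The start of the transcript is the sequence feature that these genes are known for, so the first 30 bases of 5 annotated transcripts are shown here, taken from GENCODE 29 on GRCh38. Capitals mark the opening run of C and T.
GAS5-219: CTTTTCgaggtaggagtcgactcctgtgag
SNHG16-205: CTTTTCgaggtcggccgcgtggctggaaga
SNHG5-212: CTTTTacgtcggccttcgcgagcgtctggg
SNHG8-205: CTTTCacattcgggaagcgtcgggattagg
SNHG12-209: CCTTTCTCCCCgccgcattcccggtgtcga
They lie at chr1:173867960-173867989 on the minus strand for GAS5, chr17:76557769-76557798 on the plus strand for SNHG16, chr6:85678704-85678733 on the minus strand for SNHG5, chr4:118278758-118278787 on the plus strand for SNHG8 and chr1:28581844-28581873 on the minus strand for SNHG12. The GAS5 and SNHG16 transcripts share their first 11 bases. A start of C followed by at least 4 bases that are each C or T was found in 21 of the 129 annotated transcripts of the 10 genes (16.3%), against 2.5% of 28478 transcripts of all long non-coding genes and 2.41% of 206694 transcripts of all genes. It was looked for on the transcribed strand at the first base alone. The 21 transcripts belong to 8 of the 10 genes, with 6 in GAS5 and none in SNHG7 or SNHG15. Annotated starts were used, and the starts in these cells were not measured.

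The libraries held 33393740 (s46 replicate 3) down to 21134650 (scrambled replicate 1) reads counted in genes on the sense strand. Scrambled replicate 1 also stood apart in multimapping reads, which made up 14.5% of its reads, against 6.36% to 7.34% in the other 8 libraries. For both siRNAs together, fold changes of the host transcripts and medians over the pathway gene lists are therefore given with and without it. Other values use all 9 libraries unless stated. TLX1 fell with both siRNAs: it was at 63.5 to 87.3 CPM (read counts scaled to library size by TMM) in the 6 siRNA libraries and at 171.2 to 197.9 CPM in the 3 scrambled libraries, a log2 fold change of -1.34 ± 0.11 (SE; edgeR adjusted p = 0.000394). T-cell markers were expressed, with CD3D at 382.3 CPM in siRNA libraries and 296.5 CPM in scrambled libraries, and LCK at 309.3 CPM in siRNA libraries and 289.7 CPM in scrambled libraries. TRAC, the T-cell receptor alpha constant gene, was at 0.10 CPM in siRNA libraries and 0.04 CPM in scrambled libraries. The 11 T-cell markers summed to 1895 to 2031 CPM in siRNA libraries and 1972 to 2114 CPM in scrambled libraries. Summed markers of myeloid, of erythroid and megakaryocyte, and of fibroblast and epithelial cells stayed at or below 0.301 CPM in every library, and CD33, HBA1 and PF4 had no read in any. The 4 B-cell markers summed to 5.21 to 9.73 CPM in siRNA libraries and 5.47 to 10.6 CPM in scrambled libraries, nearly all of it CD79A. NK-cell markers summed to 105 to 146.3 CPM in siRNA libraries and 155.5 to 180.3 CPM in scrambled libraries, of which NKG7 made up nearly all and the other 3 markers averaged under 1 CPM. The 2 markers of each list with the smallest p, CD7 (-0.50 ± 0.17) and CD3D (0.37 ± 0.12) of T cells, PAX5 (-1.08 ± 0.52) and CD79A (-0.05 ± 0.25) of B cells, and NKG7 (-0.54 ± 0.13; log2 fold changes with SE), did not pass the test. NKG7 did pass with DESeq2 (-0.53), with no filter on low counts (-0.52), and without s46 replicate 2 (-0.63) or scrambled replicate 2 (-0.50). CD7 passed with no filter (-0.48), and CD3D without scrambled replicate 2 (0.51). Without scrambled replicate 1, CD7 was at -0.44, CD3D at 0.22, PAX5 at -0.48, CD79A at 0.29 and NKG7 at -0.51. In bulk RNA, fewer cells of a type and less RNA per cell cannot be told apart.

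The first question was whether the host transcripts differ when TLX1 is reduced. None of the 10 passed the test in either direction (edgeR; 1 at an unadjusted p under 0.05, and 0 by DESeq2 or limma-voom), although all 10 were abundant enough to be tested. Across the 16072 genes tested, 91 did (0.566%; edgeR adjusted p under 0.05), 66 higher (0.411%) and 25 lower (0.156%). The fitted log2 fold changes for the mean of both siRNAs over scrambled siRNA ran from -0.14 to 0.30, with 8 of 10 above 0 and a median of 0.16, beside a median of -0.03 over all genes tested. That 1 was SNHG8, and 2859 genes in all reached an unadjusted p under 0.05 (17.8%). That median depended on scrambled replicate 1: without it, the median was -0.05 and 3 of 10 lay above 0.

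**Figure D1:**
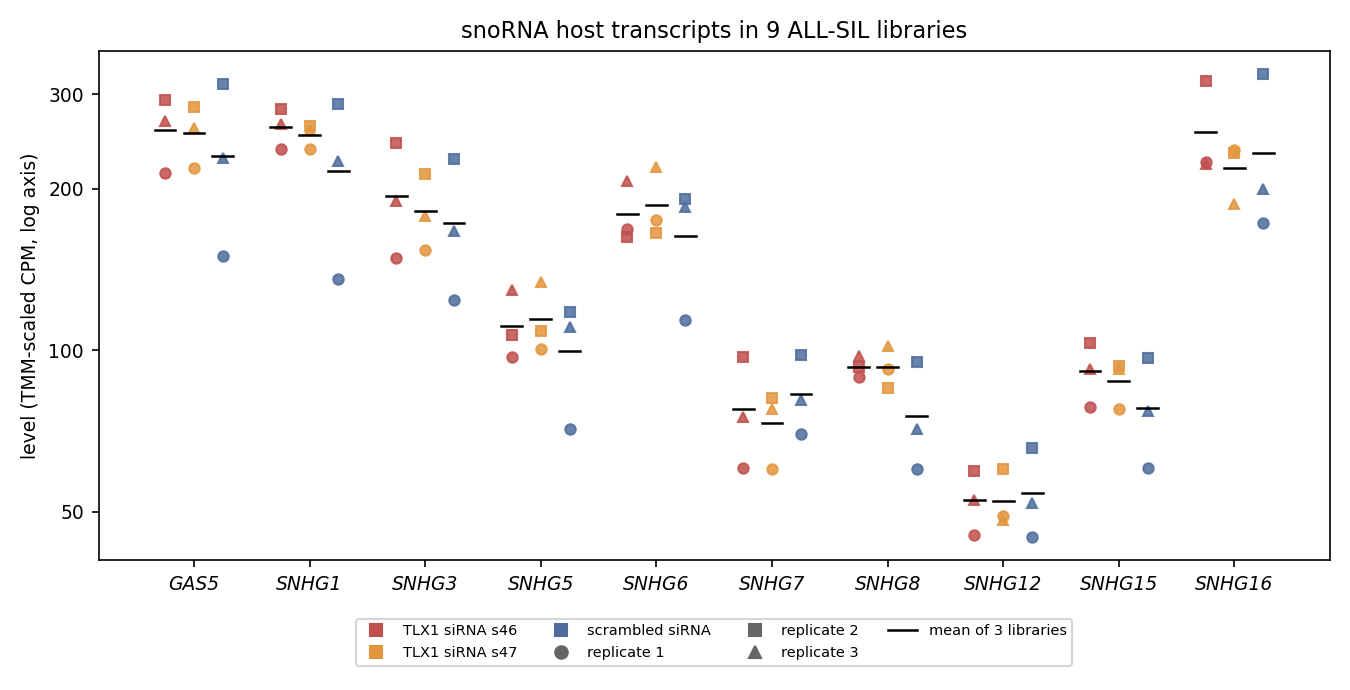
Level of each host transcript in each of the 9 libraries (TMM-scaled CPM, log axis), with s46, s47 and scrambled siRNA from left to right within a gene. Marker shape gives the replicate number and the black bar the mean of 3 libraries. The siRNA and scrambled ranges overlap for all 10 genes, and scrambled replicate 1 (circle) is the lowest of the 9 for all but SNHG7.

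GAS5 (ENSG00000234741.7, chr1:173863900-173868882, minus strand), whose introns hold box C/D snoRNAs, was among the most abundant of the 10 by read count. It stood at 214, 292 and 267 CPM in s46 libraries 1 to 3, at 218, 284 and 259 CPM in s47 libraries 1 to 3, and at 149.96, 313 and 228 CPM in scrambled libraries 1 to 3. The lowest and the highest of the 9 were both scrambled libraries, so the siRNA libraries lay wholly inside the scrambled range. The log2 fold change was 0.15 ± 0.19 (SE; 95% interval -0.27 to 0.57, edgeR adjusted p = 0.694), and it was -0.08 without scrambled replicate 1.

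SNHG1 (ENSG00000255717.6, chr11:62851988-62855914, minus strand), also known as UHG and one of the first genes found to make snoRNAs from its introns while its exons have no known product, showed the widest range of the 10. It was at 237, 282 and 264 CPM with s46, at 237, 261 and 257 CPM with s47, and at 136, 287 and 225 CPM with scrambled siRNA, again with both extremes in scrambled libraries. The highest library was 2.12-fold above the lowest. The log2 fold change was 0.25 ± 0.18 (SE; 95% interval -0.14 to 0.64, edgeR adjusted p = 0.469), and 0.003 without scrambled replicate 1.

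SNHG5 (ENSG00000203875.10, chr6:85660950-85678748, minus strand), host of box C/D snoRNAs of the SNORD50 group, was at 96.9, 107 and 129 CPM with s46, at 100.4, 108 and 134 CPM with s47, and at 71.3, 118 and 110.4 CPM with scrambled siRNA. The scrambled libraries 2 and 3 fell within the siRNA range and library 1 below it. SNHG6 (ENSG00000245910.8, chromosome 8, minus strand), host of SNORD87, was at 168, 163 and 207 CPM with s46, at 175, 165 and 219 CPM with s47, and at 114, 191 and 185 CPM with scrambled siRNA. It showed the same arrangement, 1 scrambled library below all others and 2 inside the siRNA range. The log2 fold change of SNHG5 was 0.17 ± 0.16 (SE; edgeR adjusted p = 0.572) and that of SNHG6 was 0.16 ± 0.16 (SE; edgeR adjusted p = 0.606). Without scrambled replicate 1, SNHG5 was at -0.02 and SNHG6 at -0.04.

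SNHG16 (ENSG00000163597.14, chr17:76557766-76565348, plus strand), host of the box C/D snoRNAs SNORD1A, SNORD1B and SNORD1C, had 224, 317 and 222 CPM with s46, 236, 233 and 187 CPM with s47, and 172, 327 and 199 CPM with scrambled siRNA. Both extremes were scrambled libraries, and s46 replicate 2 lay close to the higher of them. SNHG16 gave the fold change nearest 0 of the 10, at 0.02 ± 0.19 on the log2 scale (SE; edgeR adjusted p = 0.971). It was at -0.16 without scrambled replicate 1.

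Of the hosts of box H/ACA snoRNAs, SNHG8 (ENSG00000269893.6, chr4:118278709-118279823, plus strand), host of SNORA24, came nearest to a difference. Its level was 88.9, 92.8 and 97.4 CPM with s46, 92.3, 85.04 and 101.7 CPM with s47, and 59.9, 94.9 and 71.4 CPM with scrambled siRNA. The scrambled libraries 1 and 3 lay below every siRNA library and library 2 among them. The log2 fold change was 0.30 ± 0.13 (SE; 95% interval 0.01 to 0.59), with an unadjusted edgeR p of 0.0433 that did not hold after adjustment over all genes (adjusted p = 0.271). It was 0.16 without scrambled replicate 1. Without scrambled replicate 2 it was 0.51 and passed the test, in a fit that called 1650 genes in place of 91.

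SNHG3 (ENSG00000242125.3, chr1:28505980-28510892, plus strand), host of SNORA73A and SNORA73B, was at 148, 243 and 189.9 CPM with s46, at 153, 213 and 178 CPM with s47, and at 124, 227 and 167 CPM with scrambled siRNA. The libraries numbered 2 were the highest in each group. SNHG15 (ENSG00000232956.8, chr7:44983023-44986961, minus strand), host of SNORA9 and known as a short-lived RNA, was at 78.3, 103 and 92.2 CPM with s46, at 77.8, 93.4 and 92.0 CPM with s47, and at 60.2, 96.4 and 77.1 CPM with scrambled siRNA. Scrambled libraries 1 and 3 lay below every siRNA library, library 3 by less than 1 CPM, and library 2 was the second highest of the 9. The log2 fold change was 0.12 ± 0.19 for SNHG3 and 0.20 ± 0.15 for SNHG15 (SE; edgeR adjusted p = 0.762 and 0.473). Without scrambled replicate 1, SNHG3 was at -0.07 and SNHG15 at 0.04.

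SNHG12 and SNHG7 were the 2 with fold changes below 0. SNHG12 (ENSG00000197989.13, chr1:28578538-28583132, minus strand), host of SNORA44, SNORA61, SNORA16A and the box C/D SNORD99, was at 45.2, 59.6 and 52.6 CPM with s46, at 48.9, 59.9 and 48.2 CPM with s47, and at 44.8, 65.6 and 51.9 CPM with scrambled siRNA. Its 9 libraries varied least, with the highest 1.46-fold above the lowest. SNHG7 (ENSG00000233016.6, chr9:136721366-136728184, minus strand), host of SNORA17A and SNORA17B, was at 60.2, 97.2 and 75.0 CPM with s46, at 60.1, 81.5 and 77.8 CPM with s47, and at 69.7, 97.7 and 80.8 CPM with scrambled siRNA. It was the only one of the 10 whose lowest library was not scrambled replicate 1. The log2 fold change was -0.05 ± 0.14 for SNHG12 and -0.14 ± 0.16 for SNHG7 (SE; edgeR adjusted p = 0.881 and 0.661). Without scrambled replicate 1, SNHG12 was at -0.16 and SNHG7 at -0.24.

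**Figure D2:**
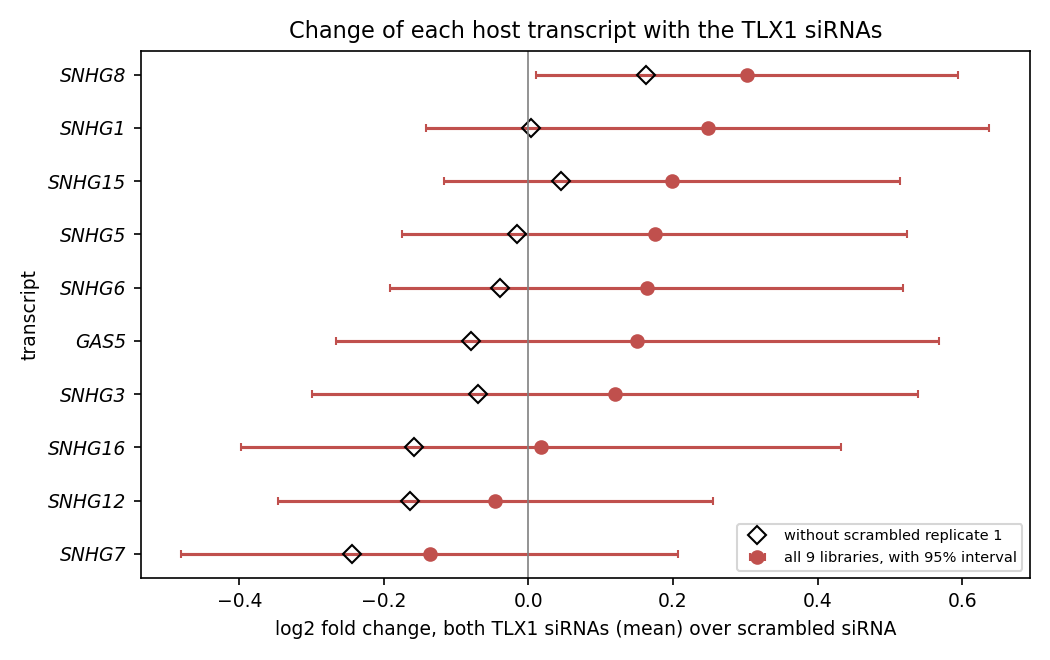
Log2 fold change of each host transcript, mean of both TLX1 siRNAs over scrambled siRNA, from all 9 libraries (filled circles, with 95% intervals) and without scrambled replicate 1 (open diamonds, no interval drawn). All 10 diamonds lie left of their circles, and the interval of SNHG8 (0.01 to 0.59) is the only one of the 10 that leaves out 0.

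Each siRNA was also set against scrambled siRNA on its own, with the same 3 scrambled libraries in both comparisons. With s46, 28 genes of all tested passed (0.174%), 24 higher (0.149%) and 4 lower (0.0249%). With s47, 53 did (0.33%), 39 higher (0.243%) and 14 lower (0.0871%). No host transcript was among them with either siRNA. The members' fold changes ran from -0.09 to 0.30 with s46, with a median of 0.16, and from -0.18 to 0.30 with s47, with a median of 0.16. Both medians depended on scrambled replicate 1: without it, they were -0.04 with s46 and -0.06 with s47. GAS5 gave log2 fold changes of 0.16 ± 0.22 with s46 and 0.14 ± 0.22 with s47, and SNHG8 gave 0.30 with each (SE 0.15). Without scrambled replicate 1, GAS5 was at -0.07 with s46 and -0.09 with s47, and SNHG8 at 0.16 with each. The siRNAs themselves were compared to see where they differ. No gene passed in that test (0%; edgeR, 113 of 16072 at an unadjusted p under 0.05), and none of the 10 reached an unadjusted p under 0.05. The members' differences, s46 minus s47, ran from -0.06 to 0.22. The largest was that of SNHG16, at 0.22 ± 0.22 (SE; edgeR adjusted p = 1.00), which had been at 0.13 with s46 and -0.09 with s47 against scrambled siRNA.

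Viewed by library, scrambled replicate 1 was the lowest of the 9 for 9 of the 10 host transcripts, where it was the lowest for 29% of all genes tested. Scrambled replicate 2 was the highest for 5 of the 10, against 9.58% of all genes, and s46 replicate 2 was the highest for SNHG3 and SNHG15. For 4 of the 10 (GAS5, SNHG1, SNHG12 and SNHG16), the scrambled libraries spanned the whole range of the siRNA libraries, which held for 13% of all genes. No host transcript had its siRNA and scrambled libraries on separate sides, while 4.47% of all genes had every siRNA library above every scrambled one and 3.65% had every siRNA library below.

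Summed over the 10 genes, the host transcripts reached 1361, 1756 and 1596 CPM in s46 libraries 1 to 3, 1399, 1584 and 1555 CPM in s47 libraries 1 to 3, and 1001, 1818 and 1394 CPM in scrambled libraries 1 to 3. The scrambled libraries thus held both the lowest and the highest sum. As a share of all gene reads this was 0.106% in scrambled replicate 1 and up to 0.181% in scrambled replicate 2. The low sum stood beside the highest multimapping share and the fewest reads counted in genes of any library, and their part in it was not tested.

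**Figure D3:**
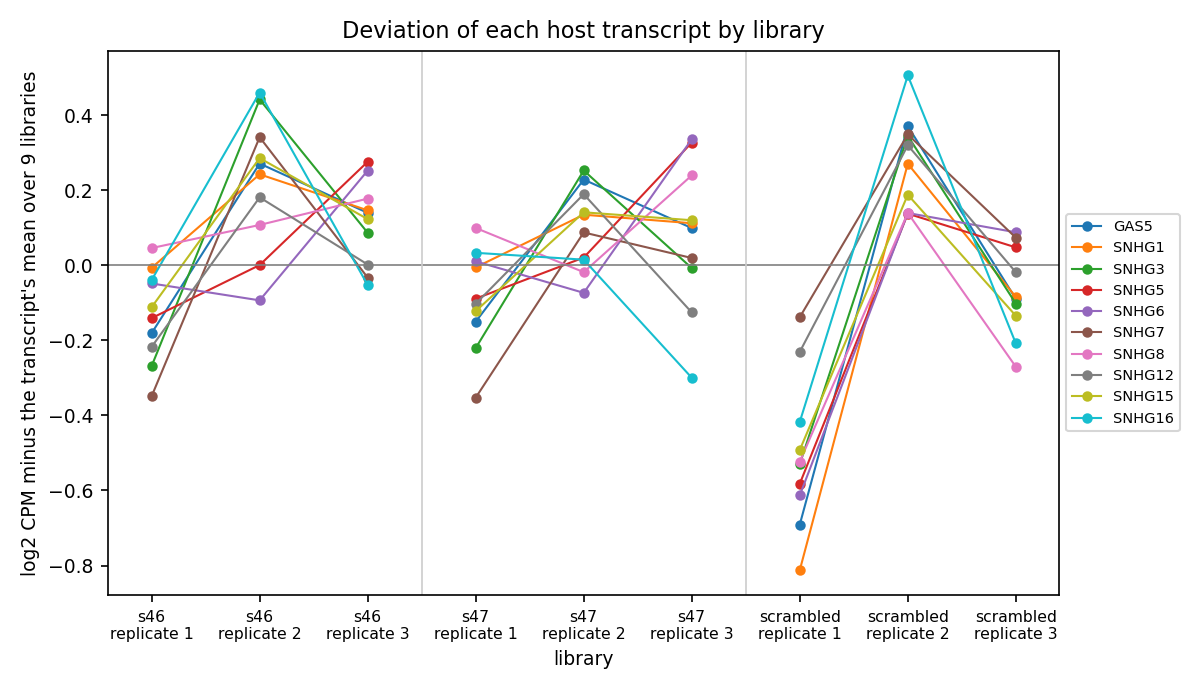
Deviation of each host transcript from its own mean over the 9 libraries (log2 CPM), by library, with s46, s47 and scrambled siRNA from left to right. The lines join libraries only to guide the eye. In scrambled replicate 1 all 10 transcripts lie below their mean (median -0.53) and in scrambled replicate 2 all 10 lie above it (median 0.30).

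The host transcripts were also viewed by replicate number, a pattern noticed in the data rather than a comparison the study set. The library numbered 1 was the lowest of its group in all 3 groups for 6 of the 10 (beside 10.5% of all genes tested), and the library numbered 2 was the highest in all 3 groups for 6 of the 10 (GAS5, SNHG1, SNHG3, SNHG7, SNHG12 and SNHG15; beside 8.17% of all genes). For SNHG5, SNHG6 and SNHG8, the library numbered 3 was the highest in both TLX1 siRNA groups (3 of 10, beside 17.1% of all genes).

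A fit with group and replicate number, chosen after seeing the data, set number 1 against the mean of numbers 2 and 3. All 10 host transcripts had log2 fold changes below 0, with a median of -0.38 beside -0.01 over all genes tested. SNHG3 (-0.51 ± 0.09 SE; edgeR adjusted p = 0.0273) and SNHG7 (-0.42 ± 0.09 SE; edgeR adjusted p = 0.0447) passed the test in that direction, as did 177 of 16072 genes (1.1%). In both directions together 331 genes passed (2.06%), 154 of them higher (0.958%). GAS5 was at -0.51 ± 0.12 (SE; edgeR adjusted p = 0.0654). The other long non-coding hosts had a median of -0.41 with 4 of 16 lower, and the protein-coding hosts a median of -0.30 with 2 of 43 lower. Both calls among the 10 were lost without any one of s46 replicates 1, 2 and 3, s47 replicates 1 and 3, and scrambled replicate 3, and SNHG3 alone passed without s47 replicate 2. Without scrambled replicate 1, 4 of the 10 passed, in a fit that called 1218 of 16365 genes in either direction. Without scrambled replicate 2, 5 did, in a fit that called 724 of 16397. What the replicate numbers stand for is not given in the labels, and 1 library of each group carries each number. In each group the library numbered 1 had the fewest reads counted in genes. It also had the largest unmapped share (5.43% for s46, 5.61% for s47 and 6.70% for scrambled siRNA). The part of these differences in the pattern was not tested.

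Levels per length gave another order than read counts. RPKM was computed as CPM per kilobase of annotated exon and averaged over the 9 libraries (± SD). SNHG6, with 1247 exonic bases, was the highest at 141.3 ± 24.4 RPKM, and SNHG8, with 923, followed at 94.4 ± 14.5 RPKM. GAS5 was at 68.1 ± 13.8 and SNHG1 at 64.7 ± 12.0 RPKM, and GAS5 was the higher in 7 of 9 libraries. SNHG3 (44.7 ± 9.61 RPKM), SNHG16 (43.9 ± 9.99 RPKM) and SNHG5 (38.6 ± 6.61 RPKM) were close together, with SNHG3 above SNHG16 in 5 of 9 libraries and SNHG16 above SNHG5 in 6 of 9. SNHG15 was at 23.5 ± 3.63, SNHG7 at 17.9 ± 3.14 and SNHG12 at 12.4 ± 1.70 RPKM. Each of the other 6 neighbouring pairs in this order kept its order in all 9 libraries. By read count, the 10 ranked between 8 (GAS5) and 46 (SNHG12) among the 2591 long non-coding genes tested. The exon lengths join all annotated transcripts of a gene, so an RPKM here understates genes that use few of their annotated exons. They also keep bases shared with another gene on the same strand, where reads that fit both are dropped. Such bases make up 15.3% of the length of SNHG1 and 0% of that of GAS5. In GAS5, reads of the 8 RefSeq snoRNAs inside a GENCODE exon can add to its count. The order of GAS5 and SNHG1 is therefore uncertain.

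The snoRNAs themselves were then examined in their hosts. GENCODE 29 places 25 snoRNA genes on the same strand within 9 of the 10 hosts and none within GAS5, where RefSeq lists 11 (SNORD81, SNORD47, SNORD80, SNORD79, SNORD78, SNORD44, SNORA103, SNORD77, SNORD76, SNORD75 and SNORD74). All 21 of the 25 that lie wholly inside an annotated exon of their host had 0 reads in every library, with no exception among them. The 3 that overlap no host exon all had reads: SNORA73B with 49076 over the 9 libraries, SNORD99 with 447 and SNORD1B with 249. SNORD30, which overlaps an exon of SNHG1 in part, had 17. Among all annotated snoRNA genes, 146 of 151 that lie wholly inside an exon of another gene had no read (96.7%), as did 471 of 740 that overlap none (63.6%) and 23 of 52 that overlap one in part (44.2%). Reads that fit 2 genes are listed in the files as ambiguous and given to neither. A count of 0 at a snoRNA inside a host exon therefore does not measure its level. The snoRNAs of GAS5 have no GENCODE 29 gene, so no count was read for them here. Mature snoRNAs are also short, and inserts of that length can be lost from libraries of this kind. The counts are therefore not a reliable measure of mature snoRNA. SNORA73B, with 204 bases, was nevertheless counted at a mean of 183.5 CPM in siRNA libraries and 206.3 CPM in scrambled libraries. What share of its reads came from mature snoRNA was not tested.

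The counted snoRNAs are shown with SNORA73A, the near-identical copy of SNORA73B in the same host. They come from GENCODE 29 on GRCh38, from chr1:28508559-28508762 on the plus strand (SNORA73B), chr1:28507366-28507571 on the plus strand (SNORA73A), chr1:28578749-28578822 on the minus strand (SNORD99) and chr17:76561109-76561192 on the plus strand (SNORD1B). Capitals mark ACA in the last 6 bases of an H/ACA snoRNA, and TGATGA in the first 15 or CTGA in the last 15 bases of a box C/D snoRNA.
SNORA73B: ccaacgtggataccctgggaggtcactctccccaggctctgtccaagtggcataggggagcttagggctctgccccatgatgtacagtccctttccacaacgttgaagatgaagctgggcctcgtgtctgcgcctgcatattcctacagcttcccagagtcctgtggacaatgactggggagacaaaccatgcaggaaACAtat
SNORA73A: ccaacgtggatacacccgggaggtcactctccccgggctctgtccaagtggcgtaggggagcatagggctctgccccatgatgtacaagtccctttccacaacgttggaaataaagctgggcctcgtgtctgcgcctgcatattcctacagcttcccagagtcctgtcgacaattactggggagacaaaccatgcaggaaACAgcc
SNORD99: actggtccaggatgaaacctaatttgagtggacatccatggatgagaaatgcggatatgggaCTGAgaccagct
SNORD1B: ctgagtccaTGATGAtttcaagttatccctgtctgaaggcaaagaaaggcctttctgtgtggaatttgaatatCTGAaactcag
On the strand as transcribed, the 3 motifs occur in 37.0% (ACA), 23.5% (TGATGA) and 44.8% (CTGA) of 955 annotated snoRNA transcripts in the same windows. Those 955 are snoRNAs of all classes together, so these are not shares within H/ACA or box C/D snoRNAs. SNORA73A and SNORA73B agree at 192 of 206 aligned positions (93.2%), and SNORA73A lies inside an annotated exon and was counted at 0. Reads that fit both copies are multimapping and enter neither count, so the level of SNORA73B is uncertain.

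SNORA73B, a member of the U17 snoRNAs that take part in cleavage of the ribosomal RNA precursor, was at 137, 176 and 208 CPM in s46 libraries 1 to 3, at 178, 165 and 236 CPM in s47 libraries 1 to 3, and at 197, 219 and 203 CPM in scrambled libraries 1 to 3. The scrambled libraries lay within the upper part of the siRNA range. Its log2 fold change was -0.17 ± 0.14 (SE; edgeR adjusted p = 0.531). It did not share the low value of its host in scrambled replicate 1: reads of SNORA73B per read of SNHG3 were 0.725 to 1.33 in siRNA libraries, and 1.59, 0.965 and 1.22 in scrambled libraries 1 to 3. SNORD99 (0.07 ± 0.29) and SNORD1B (0.32 ± 0.41, both log2 fold changes with SE) were sparse, with 22 to 72 and 7 to 46 reads per library, and neither passed the test.

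**Figure D4:**
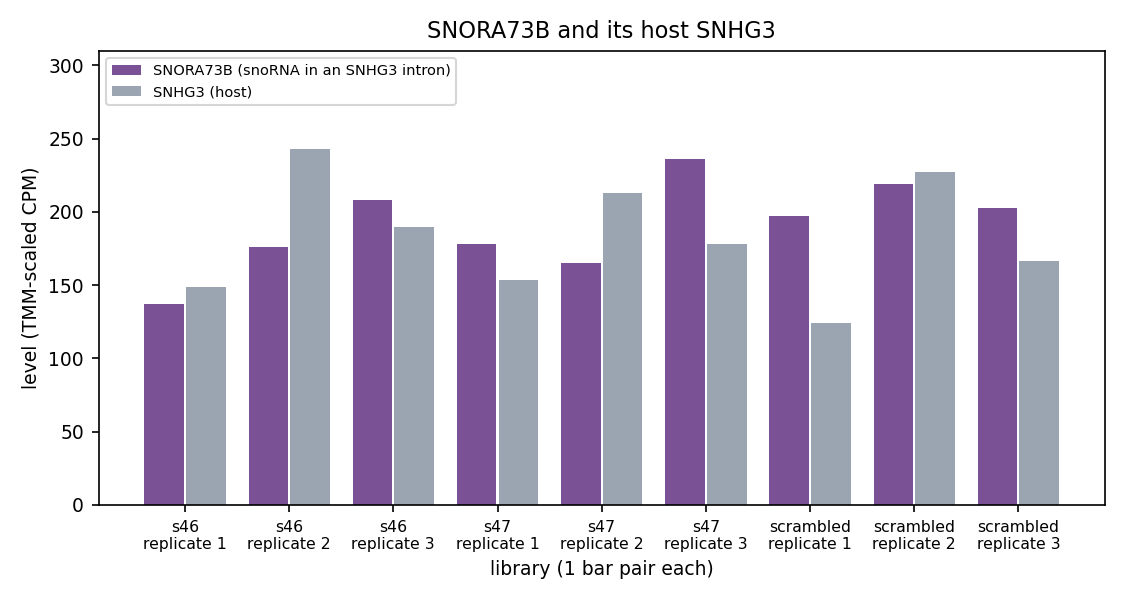
SNORA73B and its host SNHG3 in each library (TMM-scaled CPM), s46, s47 and scrambled siRNA from left to right. SNORA73B exceeds SNHG3 in scrambled replicate 1 (197 against 124 CPM), and the order of the pair varies from library to library within each group. CPM is not divided by length, and SNORA73B has 204 bases against 4088 exonic bases of SNHG3. The order is therefore one of reads, not of molecules.

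Genes beside the hosts were checked, since reads of an overlapping neighbour can be mixed with those of a host. ZBTB37, a zinc finger gene that starts 800 bases from GAS5 on the opposite strand, was at 177.5 CPM ± 26.4 with the TLX1 siRNAs (SD, n = 6) and 183.3 CPM ± 8.06 with scrambled siRNA (SD, n = 3). SLC3A2, the heavy chain of the CD98 amino acid transporter, starts 188 bases from SNHG1 and was at 150.1 CPM ± 18.2 with the TLX1 siRNAs and 146.5 CPM ± 22.9 with scrambled siRNA. RCC1, the nucleotide exchange factor of Ran, starts 37 bases from SNHG3 on the same strand and was at 128.4 CPM ± 14.6 with the TLX1 siRNAs and 108.7 CPM ± 14.6 with scrambled siRNA. Their log2 fold changes were -0.05 ± 0.12, 0.03 ± 0.13 and 0.24 ± 0.12 (SE), and none passed the test. TRNAU1AP, which overlaps SNHG12, was at 26.4 CPM with the TLX1 siRNAs and 24.97 CPM with scrambled siRNA. GAS5-AS1, antisense to GAS5, was at 1.36 CPM with the TLX1 siRNAs and 1.31 CPM with scrambled siRNA, and AC015802.4, MCMDC2 and FAM69B were each under 1 CPM. Reads on the strand opposite to a host came to 0.03% (SNHG16) to 0.98% (SNHG12) of the reads on both strands, over the 9 libraries together. RCC1 and SNHG3 share a strand, so the strand does not separate their reads. Bases shared with another annotated gene on the same strand made up 0% (GAS5) to 15.3% (SNHG1) of a host's exonic length, and 11.0% for SNHG3, and reads there that fit both genes enter neither count.

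The other genes of the pathway were described from fixed lists, and none of the other 16 tested long non-coding hosts or the 43 protein-coding hosts passed the test. The long non-coding hosts had a median log2 fold change of 0.06 (9 of 16 above 0), and -0.08 without scrambled replicate 1. SNHG10 gave 0.27 ± 0.13 and SNHG17 gave -0.20 ± 0.18 (SE; edgeR adjusted p = 0.307 and 0.574). They were at 0.14 and 0.10 without scrambled replicate 1. Among the protein-coding hosts, most of them ribosomal protein genes, 37 of 43 lay above 0 with a median of 0.19, and the median was 0.03 without scrambled replicate 1. NCL, the nucleolar protein nucleolin, gave 0.42 ± 0.12 and WDR43, a factor of the small ribosomal subunit, gave 0.54 ± 0.18 (SE; edgeR adjusted p = 0.152 and 0.208). They were at 0.35 and 0.32 without scrambled replicate 1. NCL passed with DESeq2 (0.43), and both NCL and WDR43 passed with no filter on low counts (0.44 and 0.56) and without scrambled replicate 2 (0.58 and 0.87).

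Of 17 proteins that build or assemble snoRNA particles, 2 rose and none fell, with 15 of 17 above 0, a median of 0.24, and 0.16 without scrambled replicate 1. The 2 were RUVBL2, an ATPase of the R2TP assembly complex, at 0.62 ± 0.12 (SE; edgeR adjusted p = 0.0425), and SHQ1, the chaperone of dyskerin in H/ACA particles, at 0.61 ± 0.12 (SE; edgeR adjusted p = 0.0441). Both sit just under the threshold: each lost its call with library totals as the scaling, without any one of the 6 siRNA libraries, without scrambled replicate 3, and without the 3 libraries numbered 1. Their fold changes stayed at 0.54 to 0.69 and 0.51 to 0.65 over all alternatives.

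None of 18 nonsense-mediated decay factors passed, with a median of 0.12, and 0.06 without scrambled replicate 1. SMG6, the decay endonuclease, gave -0.42 ± 0.14 and ETF1, the release factor eRF1, gave 0.44 ± 0.15 (SE; edgeR adjusted p = 0.195 and 0.208). They were at -0.24 and 0.26 without scrambled replicate 1. ETF1 passed with no filter on low counts (0.46), and both passed without scrambled replicate 2 (SMG6 -0.59 and ETF1 0.68). Of other transcripts known as targets of that decay, 6 were tested, none passed and the median was 0.14, and -0.02 without scrambled replicate 1. ATF3 was at -0.42 ± 0.20 and GADD45A at 0.33 ± 0.18 (SE), and at -0.46 and 0.17 without that library. Of 12 regulators of TOP mRNAs, none passed and the median was -0.04, and 0.04 without scrambled replicate 1. LARP1, which binds the TOP start, gave -0.42 ± 0.16, and EIF4E, the cap-binding protein, gave 0.28 ± 0.11 (SE; edgeR adjusted p = 0.227 and 0.24). They were at -0.16 and 0.17 without scrambled replicate 1. EIF4E passed without scrambled replicate 2 (0.42). Of 8 tested genes among the glucocorticoid receptor and its targets, none passed and the median was -0.16, and -0.02 without scrambled replicate 1. DUSP1, a phosphatase induced by glucocorticoids, gave 0.53 ± 0.24, and PER1, the clock gene, gave -0.46 ± 0.27 (SE; edgeR adjusted p = 0.274 and 0.388). They were at 0.32 and 0.18 without scrambled replicate 1.

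The genes whose profile over the 9 libraries was most like that of GAS5 were sought by the root mean square (RMS) difference of log2 CPM, each gene centred on its own mean, among 11349 non-member genes. The nearest were IDH1 (RMS difference 0.061), EPB41L4A-AS1 (0.067), RPS4Y1 (0.075), ZNF442 (0.076) and ZFY (0.081), where the profile of GAS5 itself departed from its mean by an RMS of 0.304. EPB41L4A-AS1 is itself a long non-coding snoRNA host. For the mean profile of the 10 hosts the nearest were MED8 (0.047), EPB41L4A-AS1 (0.048), ZPR1 (0.0498), RPS4Y1 (0.051) and IDH1 (0.054). Among the hosts themselves, SNHG3 (0.096), SNHG1 (0.098) and SNHG15 (0.099) were nearest to GAS5 and SNHG7 (0.227) the farthest. These are descriptions over the same 9 libraries, so their differences in depth and the deviation of scrambled replicate 1 enter every profile.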

How the data were processed

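RNA was depleted of ribosomal RNA and made into stranded libraries, per the labels' protocols. What the authors deposited for each library is a file of raw counts in 3 columns, of which the sense column was used. The build is GRCh38 per the submitters' processing notes, while the aligner, the counter and the annotation were not given in the sources used here. Unmapped (4.52% to 6.70% of reads), multimapping (6.36% to 14.5%), outside-gene (23.8% to 36.8%) and ambiguous reads (2.12% to 4.45%) fill 4 lines that name no gene, and these stayed out of library sizes and tests. GENCODE 29 gave symbols, coordinates and sequences for 57492 of 58096 identifiers, and RefSeq the snoRNAs of GAS5. Counts passing filterByExpr (minimum 10) were scaled by TMM and fitted over all 9 libraries by group in edgeR 4.0.16 (R 4.3.3; quasi-likelihood F test, robust), with Benjamini-Hochberg adjustment over 16072 genes and a threshold of 0.05. Scripts were tested on simulated data. Alternatives were DESeq2 1.42.0, voom in limma 3.58.1, other scalings, filters and strands, and omitted libraries.

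Members, the 14 gene lists, tests and alternatives were chosen with earlier results of these data known. The rule for named genes took all members, TLX1, up to 4 called genes per list or else the 2 with the smallest p, neighbours overlapping or starting within 2000 bases, the most counted snoRNAs, and the 5 most similar profiles. The comparison by replicate number was chosen after seeing the data.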

Additional observations from a re-analysis of the deposited data

How the results depend on the processing

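Across the scalings, tools, filters, strand settings and smaller fits, no host transcript passed the test in any of the 4 siRNA comparisons. With each library left out in turn, 0 to 1 of the 10 passed for both siRNAs together, the 1 being SNHG8 without scrambled replicate 2, and none passed for s46, for s47 or between them. The signs were less stable. The median over the 10 ran from -0.054 to 0.36 as libraries were left out, from -0.04 to 0.42 for s46, from -0.06 to 0.33 for s47 and from -0.03 to 0.12 for s46 minus s47. Fold changes that changed sign in at least 1 of these fits ran, on the log2 scale, as follows: GAS5 -0.080 to 0.44, SNHG3 -0.069 to 0.37, SNHG5 -0.016 to 0.31, SNHG6 -0.039 to 0.30, SNHG7 -0.24 to 0.0060, SNHG12 -0.16 to 0.12, SNHG16 -0.16 to 0.35, SNORD99 -0.18 to 0.46, SNORD1B -0.043 to 0.62, GAS5-AS1 -0.053 to 0.16, SLC3A2 -0.077 to 0.15, SNHG17 -0.35 to 0.098, PER1 -0.69 to 0.18, CD79A -0.21 to 0.29, EPB41L4A-AS1 -0.067 to 0.36. For s46 alone GAS5 ran from -0.069 to 0.45 and SNHG16 from -0.060 to 0.46, and for s47 alone GAS5 ran from -0.091 to 0.43 and SNHG16 from -0.27 to 0.24. Library totals as scaling turned the sign of SNHG16 (-0.040), GAS5-AS1 (-0.020) and SLC3A2 (-0.029). Leaving out the 3 libraries numbered 1 turned that of SNHG16 (-0.15), SNORD99 (-0.053), GAS5-AS1 (-0.026), TRNAU1AP (-0.017), SNHG17 (0.13), PER1 (0.19) and CD79A (0.13). The cause was not tested. In the comparison by replicate number, 0 to 5 of the 10 passed as libraries were left out, and the median stayed between -0.43 and -0.25.

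All-gene calls for both siRNAs were 91, and 457 with DESeq2 and 876 without a filter on low counts. They were 109 without scrambled replicate 1, 1650 without scrambled replicate 2 and 22 without scrambled replicate 3. Without any 1 siRNA library they were 41 to 60, and without the libraries numbered 1 they were 63. For s46 alone they were 28 and ranged from 4 without s46 replicate 1 to 384 without a filter, and for s47 alone they were 53 and ranged from 4 without s47 replicate 1 to 432 without a filter. By replicate number they were 331, and 28 to 1218 as libraries were left out. Replicate numbers are shared between groups, and deviations of most same-numbered libraries correlated across genes (0.20 to 0.44). The exception was s47 2 with scrambled 2, at -0.03. Libraries of different groups with unlike numbers ran from -0.31 to 0.17. The labels do not say what the numbers stand for, so the main fit does not pair the libraries. A fit with a replicate block is given beside it. With a replicate block, 222 genes passed for both siRNAs (74 for s46 and 125 for s47), none of the 10 did, and their median was 0.18. The block also let NKG7 pass (-0.55). With a replicate block and without scrambled replicate 1 (chosen after seeing the data), 506 genes and none of the 10 passed, and SNHG6 (-0.0122), SNHG16 (-0.12), SNORD99 (-0.033), GAS5-AS1 (-0.026), TRNAU1AP (-0.017), SNHG17 (0.11), PER1 (0.19) and CD79A (0.12) changed sign, as did SNHG16 for s46 alone (-0.015). That fit also let NKG7 (-0.45), CD7 (-0.39) and ETF1 (0.31) pass. Each host had at least 1000 reads in every library, so counting error was small beside the spread between libraries.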
